A study of Mus musculus with 16 samples.

Results

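Pleiotrophin (Ptn), midkine (Mdk) and the syndecans (Sdc1, Sdc2, Sdc3 and Sdc4) were followed across mouse tumours given an antibody to the T cell checkpoint receptor PD-1, the kinase inhibitor cabozantinib, or both. The genes were found by symbol in a table of log2 array signals, and of several probe sets for a gene the brightest by its mean across the 16 arrays stood for it. This gave 5 of the 6 genes, among 17097 genes in all, and Sdc1 was not analysed here. The group was chosen by the measured levels of Ptn, which was higher with the antibody alone and lower when the inhibitor was added. Differences of Ptn that involve the antibody alone are therefore given as descriptions with no test.

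The tumours were grown from Hepa1-6, a mouse hepatoma cell line, under the skin of the flank in male C57BL/6 mice aged 5 weeks. Cells were injected in 50% Matrigel, and the mice were randomised once a tumour measured 200 to 300 cubic mm. The Placebo group (n = 4) was given hamster IgG, and the AntiPD1 group (n = 3) was given the hamster monoclonal antibody J43 against mouse PD-1. Either protein was injected in 5 doses of 10 mg/kg, spaced 3 days apart. The Cabozantinib group (n = 5) took 30 mg/kg of cabozantinib by mouth each day, and the Combination group (n = 4) was given cabozantinib together with the antibody. The labels do not say whether IgG was also injected with cabozantinib alone or whether an oral vehicle was used. All tumours were taken on day 14, and 1 array was run per tumour. The model has limits that all groups share: a single cell line, grown under the skin and not in the liver, and whole tumour RNA in which host cells and hepatoma cells are mixed.

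Pleiotrophin and midkine are the only members of a small family of secreted, heparin-binding growth factors. Both are abundant in the embryo, scarce in most adult tissues and found again in many tumours, and midkine is a known serum marker of hepatocellular carcinoma. They bind the sulphated sugar chains of proteoglycans and signal through receptors that include PTPRZ1, ALK, LRP1 and integrins. Syndecans are transmembrane proteoglycans whose heparan sulfate chains hold such growth factors at the cell surface. Syndecan-2 is typical of mesenchymal cells, syndecan-3 was first known from the nervous system, and syndecan-4 is a widespread component of focal adhesions. Cabozantinib inhibits VEGF receptors, MET, AXL and KIT.

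The promoter of Ptn is shown because the gene chose the group. That of Sdc4 is shown because all tumours with cabozantinib lay above the others in its brightest probe set. Each sequence is the 250 bases before the annotated start in RefSeq, build GRCm38.p6, on the minus strand, and capitals mark matches to TATAA or to the GC box GGGCGG on either strand. RefSeq promoters of Mdk and Sdc2 were not used here.
Ptn, chr6:36810180-36810429: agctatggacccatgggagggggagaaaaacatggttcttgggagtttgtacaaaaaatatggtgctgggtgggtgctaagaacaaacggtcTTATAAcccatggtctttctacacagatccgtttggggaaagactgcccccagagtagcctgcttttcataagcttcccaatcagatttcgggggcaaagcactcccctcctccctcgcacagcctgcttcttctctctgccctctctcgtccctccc
Sdc4, chr2:164443189-164443438: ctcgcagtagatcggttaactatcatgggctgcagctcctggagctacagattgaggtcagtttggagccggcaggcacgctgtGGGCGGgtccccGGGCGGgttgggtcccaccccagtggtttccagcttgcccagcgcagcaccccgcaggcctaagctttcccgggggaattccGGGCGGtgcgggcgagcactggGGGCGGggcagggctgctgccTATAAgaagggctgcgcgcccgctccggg
The Ptn window is 52% G and C and holds 0 GC boxes and 2 overlapping TATAA matches, 1 on each strand. The Sdc4 window is 68% G and C and holds 4 GC boxes and 1 TATAA match. Of 32851 RefSeq promoter windows of the same length, 32.7% held the GC box and 22.8% held TATAA. The letters ACGTG, the core of hypoxia response elements, and TGANTCA, the AP-1 site, were searched on both strands too and had 0 matches in either window. They occurred in 16.6% and 6.75% of all windows. These matches describe the letters and not a bound factor.

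All 10 measured hepatoma genes had group means above the lowest array median in every group. Afp, the fetal liver protein alpha-fetoprotein, lay between 12.41 and 12.78 on the log2 scale in all 16 tumours, and albumin (Alb) between 12.84 and 13.20. These markers had lower means in Combination: against Placebo 9 of 10 had a negative difference, with a median of -0.39 against -0.02 for all genes. Of the 10, 2 were called as lower, Alb and Foxa1, as were 6.64% of all genes. Ttr, the thyroid hormone carrier transthyretin, ran from 6.25 to 11.06 over the tumours, with means of 10.17 in Placebo and 7.94 in Combination. The part of this in the Combination differences was not tested. Array medians ran from 4.92 to 5.13, and a group mean under 4.92 is not shown to be above background. Arrays correlated at 0.953 to 0.994, and none held the values of another. In 3 tumours, AntiPD1 replicate 2, Cabozantinib replicate 4 and Combination replicate 4, a score of 12 skeletal muscle genes reached 4.83, 4.41 and 5.52, against at most 2.37 in the other tumours. A marker score averages, over the measured genes of a list, how far each gene's log2 signal lay from its own mean across the tumours. The score of the hepatoma genes was -0.80, -0.91 and -0.51 in Combination replicates 1, 2 and 3. In Combination replicate 4 it was 0.40, within the Placebo range of -0.25 to 0.56.

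Ptn signal was high in the 3 AntiPD1 tumours. In the rest it lay under the lowest array median of 4.92, except in Cabozantinib replicate 3 and Combination replicate 2. The AntiPD1 tumours gave 6.65, 6.70 and 6.61 on the log2 scale. The Placebo tumours gave 4.03, 4.02, 4.63 and 4.80, and the Combination tumours 4.06, 5.1, 4.40 and 4.39. The Cabozantinib tumours gave 4.26, 4.16, 5.55, 3.98 and 3.85. Every AntiPD1 tumour lay above every other tumour, and Cabozantinib replicate 3 was the highest of those without the antibody alone.

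**Figure D1:**
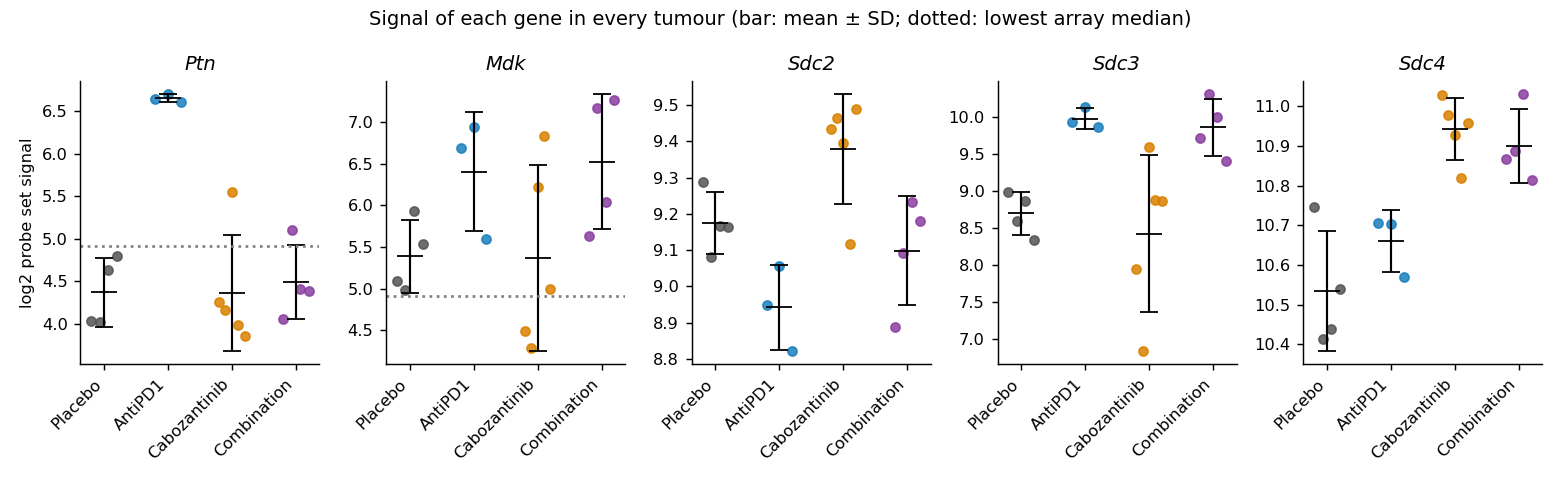
The log2 probe set signal (vertical axis) of Ptn, Mdk, Sdc2, Sdc3 and Sdc4 is drawn for every tumour in the 4 groups, with bars for the mean ± SD and a dotted line at the lowest array median, 4.92. Ptn stands at 6.61 to 6.70 in AntiPD1 alone, and all 9 tumours with cabozantinib lie above the other 7 for the brightest Sdc4 probe set.

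The mean Ptn signal was 6.65 ± 0.05 (SD, n = 3) in AntiPD1 and 4.37 ± 0.40 (SD, n = 4) in Placebo, a difference of 2.28 ± 0.35 (SE) on the log2 scale. Combination stood at 4.49 ± 0.44 (SD, n = 4), and its difference from AntiPD1 was -2.17 ± 0.35 (SE). For Cabozantinib the mean was 4.36 ± 0.68 (SD, n = 5), and AntiPD1 was 2.29 ± 0.33 (SE) above it. The 3 lower groups had means under 4.92, so background limits how large these differences can appear. The percentage of all genes called at a limma adjusted p under 0.05 was 0.0292% in AntiPD1 against Placebo and 0.234% in Combination against AntiPD1. The values chose Ptn, so nothing is read from them here.

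Cabozantinib against Placebo and Combination against Cabozantinib gave no call for Ptn. Each still shares a group with the differences that chose the gene. Cabozantinib minus Placebo was -0.01 ± 0.30 (SE), with a 95% interval of -0.66 to 0.64 and a limma adjusted p of 0.994. Combination minus Placebo was 0.12 ± 0.32 (SE), with an interval of -0.57 to 0.80. It is given as a description, because the values of both groups were used to choose Ptn. Combination minus Cabozantinib was 0.13 ± 0.30 (SE), with an interval of -0.52 to 0.78 and a limma adjusted p of 0.845. These intervals are wide for a gene near background.

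The other probe sets of Ptn did not all follow the first. That probe set, 1448254_PM_at, had the highest mean over the 16 arrays only through its AntiPD1 values. Its means of 4.37 in Placebo, 4.36 in Cabozantinib and 4.49 in Combination lay under those of 1443173_PM_at. In the probe set 1416211_PM_a_at the AntiPD1 tumours gave 6.17, 5.66 and 5.73, and the other 13 tumours lay between 4.18 and 4.92. AntiPD1 minus Placebo was 1.25 there, and Combination minus AntiPD1 was -1.53, again as descriptions. The probe set 1443173_PM_at had group means of 4.59 in Placebo, 4.71 in AntiPD1, 4.61 in Cabozantinib and 4.63 in Combination, all under the lowest array median. The high AntiPD1 level was thus seen by 2 of the 3 probe sets. With the mean of all 3, the differences of Ptn were smaller: 1.22 for AntiPD1 against Placebo, -1.26 for Combination against AntiPD1, 1.24 for AntiPD1 against Cabozantinib and -1.23 for the interaction of the drugs.

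Some marker scores of other cell types were also highest in the AntiPD1 group, whose values chose Ptn. The endothelial score over 10 of 10 markers was 0.77 to 1.5 in AntiPD1, -0.27 to 0.56 in Placebo, -0.82 to -0.16 in Cabozantinib and -0.36 to -0.11 in Combination. The AntiPD1 tumours were again above every other tumour. The neuroendocrine score over 7 of 8 markers was 0.14 to 0.17 in AntiPD1 and between -0.08 and 0.03 elsewhere. It differed through Chga, the granule protein chromogranin A, with a mean of 5.60 in AntiPD1 and 3.97 to 4.36 in the other groups. The other 6 measured neuroendocrine markers had means under the lowest array median in every group. The Schwann cell and nerve score over 6 of 10 markers was -0.07 to 0.19 in AntiPD1 and 0.08 to 0.24 in Combination. Of its markers, S100b had means under the lowest array median in every group, Mbp and Gfra3 in 3 groups and Ngfr in 1. Over the 13 tumours outside AntiPD1, Ptn gave r = 0.14 with the endothelial score (permutation test, adjusted p = 0.796). With the neuroendocrine score r was -0.44 there (permutation test, adjusted p = 0.260), and with the Schwann cell and nerve score 0.16 (0.794). Of those 13 tumours only Cabozantinib replicate 3 and Combination replicate 2 had Ptn above the lowest array median. With the rest under that level, these r cannot show whether Ptn follows a score. The part of these cell types in the Ptn signal was not tested. In whole tumour RNA, fewer cells of a type and less RNA per cell cannot be told apart.

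The genes whose signal over the 16 tumours was most like that of Ptn, among 10548 genes with a mean above the lowest array median, were Jcad, an endothelial junction protein (r = 0.85), Pnp2 (r = 0.85), the antiviral enzyme gene Rsad2 (r = 0.85), the imprinted long noncoding RNA Rian (r = 0.84) and the interferon-inducible Ifi213 (r = 0.84). The AntiPD1 tumours stand apart for Ptn and carry much of these values: within groups r was 0.55 for Jcad, 0.64 for Pnp2, 0.50 for Rsad2, 0.78 for Rian and 0.39 for Ifi213. Over the 13 tumours outside AntiPD1 the largest link of Ptn to a stromal score was with fibroblasts (r = 0.59), with a permutation p that did not pass after adjustment over 65 relations (adjusted p = 0.119). Without the 2 tumours farthest from the median score r was 0.46. Cabozantinib replicate 3 and Combination replicate 2, where alone Ptn exceeded the lowest array median, had fibroblast scores of 0.96 and 0.84.

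Mdk, the relative of Ptn, had another order of levels. The Placebo tumours gave 5.09, 4.98, 5.93 and 5.54, and the AntiPD1 tumours 6.68, 6.94 and 5.59. The Cabozantinib tumours gave 4.50, 4.28, 6.23, 6.83 and 5.00, and the Combination tumours 5.64, 7.17, 6.04 and 7.26. The values of every pair of groups overlapped, and Cabozantinib alone spanned from the lowest tumour to near the highest.

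From high to low, the Mdk means were 6.53 ± 0.81 for Combination (SD, n = 4), 6.41 ± 0.71 for AntiPD1 (SD, n = 3), 5.39 ± 0.43 for Placebo (SD, n = 4) and 5.37 ± 1.11 for Cabozantinib (SD, n = 5). No neighbours in this order passed the test. Combination minus AntiPD1 was 0.12 ± 0.59 (SE), with an interval of -1.14 to 1.38, where Ptn differed by -2.17. AntiPD1 minus Placebo was 1.02 ± 0.59 (SE), limma adjusted p = 0.346, and Combination minus Placebo was 1.14 ± 0.54 (SE), limma adjusted p = 0.180. With the antibody averaged over cabozantinib, a contrast added after seeing the data, Mdk differed by 1.09 ± 0.39 (SE), limma adjusted p = 0.0653. In that averaged contrast 18.0% of all genes were called. Leaving out AntiPD1 replicate 3, Cabozantinib replicate 3 or Cabozantinib replicate 4 brought that limma adjusted p to 0.0461, 0.0394 and 0.0218. It also passed with dim genes left out (0.0472) and with array weights (0.0140).

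Mdk signal followed the fibroblast markers. Over the 16 tumours it correlated with the fibroblast score of 10 genes, among them the collagens Col1a1 and Col3a1 and the matrix protein Postn, at r = 0.88 (permutation p = 2e-05, adjusted p = 0.000433) and rho = 0.88 (permutation p = 4e-05, adjusted p = 0.0013). Without the 2 tumours farthest from the median score r was 0.85, and within groups it was 0.83 (permutation p = 0.0011, adjusted p = 0.0238). The plasma cell score gave r = 0.82 (permutation p = 5e-05, adjusted p = 0.000812) and rho = 0.84 (permutation p = 6e-05, adjusted p = 0.0013), with r = 0.78 within groups (adjusted p = 0.0234). This score covers 6 of 8 markers. Tnfrsf17 and Cd79a had means under the lowest array median in every group, and Ighm in 2 groups. From Placebo to Combination the mean of Jchain went from 7.75 to 11.43, that of Xbp1 from 12.09 to 11.95 and that of Prdm1 from 9.44 to 9.35. The macrophage score gave r = 0.80 (permutation p = 0.00021, adjusted p = 0.00227) and rho = 0.79 (permutation p = 0.00053, adjusted p = 0.00574), and within groups r = 0.66 (adjusted p = 0.181). Without the 2 farthest tumours r was 0.76 for plasma cells and 0.73 for macrophages. All p-values here are two-sided and adjusted over 65 relations of the 5 genes with 13 scores.

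The genes most like Mdk among 10547 were Prrg1 (r = 0.96), Map1b, a microtubule-associated protein (r = 0.96), Fbln1, the matrix protein fibulin-1 (r = 0.96), the collagen Col16a1 (r = 0.96) and Cyp1b1 (r = 0.95). Their r within groups was 0.92 to 0.97. The fibroblast score was 0.18 to 0.94 in AntiPD1, 0.41 to 0.84 in Combination, -1.18 to -0.11 in Placebo and -1.36 to 0.96 in Cabozantinib. The tumours Cabozantinib replicates 3 and 4, which had the highest Mdk of their group, also had its highest fibroblast scores, 0.96 and 0.47. The part of fibroblasts in the Mdk signal was not tested.

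**Figure D2:**
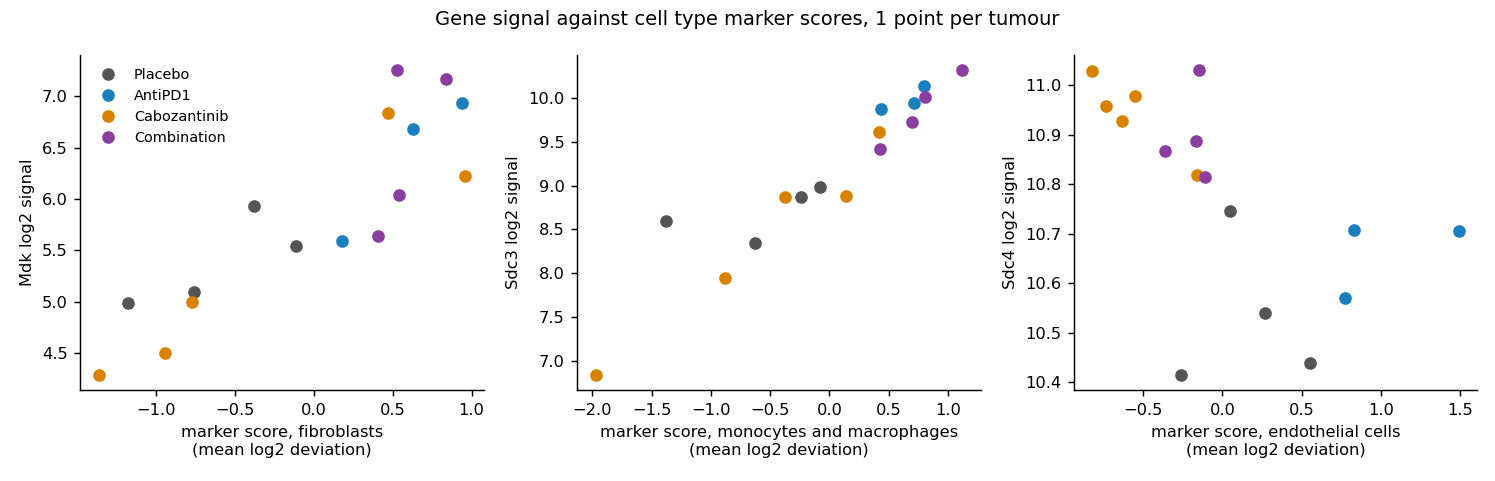
Each point is a tumour, coloured by group. The log2 signal of Mdk, Sdc3 or Sdc4 (vertical axis) is set against the score of fibroblast, macrophage or endothelial markers (horizontal axis, mean log2 deviation). Mdk and Sdc3 rise along their scores with r = 0.88 and r = 0.95, and Sdc4 gives r = -0.59 over all tumours and -0.12 within groups.

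Among the syndecans, the clearest pattern belonged to Sdc4, whose product links focal adhesions to protein kinase C alpha. The Placebo tumours gave 10.75, 10.41, 10.44 and 10.54, and the AntiPD1 tumours 10.71, 10.70 and 10.57. The Cabozantinib tumours gave 11.03, 10.98, 10.93, 10.82 and 10.96, and the Combination tumours 10.87, 10.89, 11.03 and 10.81. In this brightest probe set, all 9 tumours with cabozantinib, from 10.81 to 11.03, lay above all 7 without it, from 10.41 to 10.75. Such a separation, in either direction, occurred in 0.439% of all genes.

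Sdc4 rose in Cabozantinib against Placebo by 0.41 ± 0.07 on the log2 scale (SE), a fold change of 1.33, with a limma adjusted p of 0.0372 and 5 of 5 tumours above every Placebo tumour, as for 1.97% of all genes. It was the only called gene of the 4 other than Ptn in this comparison, where 0.257% of all genes were called and 0.111% were called as higher. Sdc4 also rose in Combination against Placebo by 0.37 ± 0.08 (SE), a fold change of 1.29, limma adjusted p = 0.0198, and all 4 tumours exceeded the highest Placebo tumour, as for 7.94% of all genes. Here 10.4% of all genes were called and 3.71% were called as higher, and Sdc4 was again the only gene of these 4. Combination minus Cabozantinib was -0.04 ± 0.07 (SE), with an interval of -0.20 to 0.12.

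Against the antibody alone, Sdc4 differed in the same direction and missed the threshold in the fit of all 16 tumours. Combination minus AntiPD1 was 0.24 ± 0.09 (SE), with a 95% interval of 0.06 to 0.42 and a limma adjusted p of 0.478, and 4 of 4 Combination tumours were above every AntiPD1 tumour, as for 4.25% of all genes. AntiPD1 minus Cabozantinib was -0.28 ± 0.08 (SE), limma adjusted p = 0.0585, again with no overlap, as for 7.64% of all genes in this direction. The latter passed in 5 of 8 settings, with dim genes left out (0.0449), after quantile normalization (0.0489), with array weights (0.0208), with a trended prior (0.0439) and with the code in the sample titles as a random block (0.0489). It also passed without Placebo replicate 1 (0.0389) or Cabozantinib replicate 4 (0.0371).

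The call in Cabozantinib against Placebo was close to the threshold. It was lost when only those 2 groups were fitted (limma adjusted p = 0.143), without the 3 tumours high in muscle genes (0.0514), and without any of Placebo replicates 2, 3 and 4, AntiPD1 replicate 1, Cabozantinib replicates 1, 2, 3 and 5 or Combination replicate 1 (0.0566 to 0.157). The other 6 settings gave 0.0193 to 0.0410. In Combination against Placebo the call was lost without Placebo replicate 2, 3 or 4 or Combination replicate 2 (limma adjusted p of 0.0541 to 0.0707). The size of the difference stayed between 0.32 and 0.48 in all of these fits.

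With cabozantinib averaged over the antibody, a contrast added after the values were seen, Sdc4 rose by 0.32 ± 0.06 (SE), limma adjusted p = 0.0107. Of all genes, 2.12% were called in this contrast and 0.860% were called as higher. The call held without each of the 16 tumours in turn (limma adjusted p of 0.00287 to 0.0347). Under the other 7 settings that limma adjusted p was 0.0032 to 0.0223. The antibody averaged over cabozantinib gave 0.04 ± 0.06 (SE) for Sdc4, with an interval of -0.08 to 0.16. AntiPD1 minus Placebo was 0.13 ± 0.09 (SE), limma adjusted p = 0.433.

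The second probe set of Sdc4, 1448793_PM_a_at, gave 9.82 ± 0.28 (SD, n = 4) in Placebo and 9.98 ± 0.08 (SD, n = 3) in AntiPD1. With cabozantinib it gave 10.31 ± 0.17 (SD, n = 5) alone and 10.27 ± 0.10 (SD, n = 4) in Combination. Over 28898 probe sets with 1 gene, its difference in Cabozantinib against Placebo was 0.49 ± 0.12 (SE) and missed the threshold (limma adjusted p = 0.104), while the first probe set passed at 0.0497. In Combination against Placebo the second was called, at 0.45 ± 0.12 (SE), limma adjusted p = 0.0399. Its size was thus no smaller than that of the first in either comparison. The tumours with and without cabozantinib did overlap in it. Cabozantinib replicate 4, at 10.02, lay below Placebo replicate 1 at 10.11 and AntiPD1 replicate 3 at 10.07.

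Array controls moved with cabozantinib alone. The hybridisation controls, RNAs added in fixed amounts, averaged 10.49 ± 0.29 in Cabozantinib, 9.86 ± 0.39 in Placebo, 9.98 ± 0.27 in AntiPD1 and 10.15 ± 0.31 in Combination, as SD over 5, 4, 3 and 4 tumours. The labelling controls averaged 9.15 ± 0.31 in Cabozantinib, 8.41 ± 0.61 in Placebo, 8.84 ± 0.23 in AntiPD1 and 8.55 ± 0.60 in Combination, as SD over the same tumours. Their part in the Sdc4 difference was not tested. Quantile normalizing the arrays again, which gave a difference of 0.42, does not test that part. Endothelial markers fell with cabozantinib: 8 of 10 were called as lower in the averaged contrast, where 1.26% of all genes were, with a median of -0.90 against 0.00 for all genes. Across tumours Sdc4 and the endothelial score gave r = -0.59 (permutation p = 0.0161, adjusted p = 0.0696) and rho = -0.67 (permutation p = 0.00513, adjusted p = 0.0417). Without the 2 farthest tumours r was -0.73, and within groups it was -0.12 (adjusted p = 0.922).

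The genes most like Sdc4 over the 16 tumours were Adamtsl4, a matrix protein of the fibrillin fibres (r = 0.94), Tmem63a, a mechanically gated channel (r = 0.93), Tcf25 (r = 0.91), Rusc2 (r = 0.90) and the centrosomal protein gene Cep170 (r = 0.89). Within groups their r was 0.74 to 0.84.

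Sdc2 was lowest with the antibody alone and highest with cabozantinib alone. The Placebo tumours gave 9.29, 9.08, 9.17 and 9.16, and the AntiPD1 tumours 8.95, 9.06 and 8.82. The Cabozantinib tumours gave 9.43, 9.46, 9.39, 9.12 and 9.49, and the Combination tumours 8.89, 9.09, 9.23 and 9.18. The AntiPD1 tumours lay below every Placebo and every Cabozantinib tumour, and Combination overlapped with all other groups. Groups apart in that direction were found for 12.3% of all genes against Placebo and 7.64% against Cabozantinib.

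Sdc2 was lower in AntiPD1 than in Cabozantinib by 0.44 ± 0.10 on the log2 scale (SE), a fold change of 1.35, with a limma adjusted p of 0.0229. In this comparison 5.43% of all genes were called and 2.67% were called as lower, and Sdc2 was the only called gene of the 4 other than Ptn. The call was lost when only the 2 groups were fitted (limma adjusted p = 0.0928) and without any of the 3 AntiPD1 tumours or Cabozantinib replicate 1, 2 or 5 (0.0511 to 0.0925). The other 7 settings gave 0.00289 to 0.0234. All 3 probe sets of Sdc2 were called in it, at differences of -0.44, -0.43 and -0.35 and limma adjusted p of 0.0244, 0.0101 and 0.0370 over all probe sets.

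Against Placebo, neither drug alone moved Sdc2 past the threshold. AntiPD1 minus Placebo was -0.23 ± 0.10 (SE), limma adjusted p = 0.239, and Cabozantinib minus Placebo was 0.20 ± 0.09 (SE), limma adjusted p = 0.352. Combination minus Placebo was -0.08 ± 0.09 (SE), limma adjusted p = 0.645. Combination minus Cabozantinib was -0.28 ± 0.09 (SE), limma adjusted p = 0.101. With the antibody averaged over cabozantinib, Sdc2 fell by 0.26 ± 0.07 (SE), limma adjusted p = 0.0229, in a contrast that called 18.0% of all genes and 9.66% as lower. It stayed called without each tumour in turn (limma adjusted p of 0.0117 to 0.0499), and all 3 probe sets were called in that contrast.

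Sdc2 signal ran against the endothelial score over all tumours (r = -0.65, permutation p = 0.00598, adjusted p = 0.0486), with rho = -0.61 (permutation p = 0.0138, adjusted p = 0.0600) and r = -0.67 without the 2 farthest tumours. Within groups r was 0.03 (adjusted p = 0.942), so the relation did not hold there. A relation with the keratinocyte score (r = 0.68, permutation p = 0.00326, adjusted p = 0.0303, rho = 0.61, adjusted p = 0.0592) rested on markers of which 7 of 8 had means under the lowest array median in every group. It was 0.56 without the 2 farthest tumours and 0.46 within groups (adjusted p = 0.478). The genes most like Sdc2 were Sema3c, a secreted guidance factor that binds neuropilins (r = 0.92), Gm8273 (r = 0.91), the lipase maturation factor gene Lmf1 (r = 0.90), the glucose-6-phosphate transporter gene Slc37a4 (r = 0.89) and Plscr4 (r = 0.87).

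**Figure D3:**
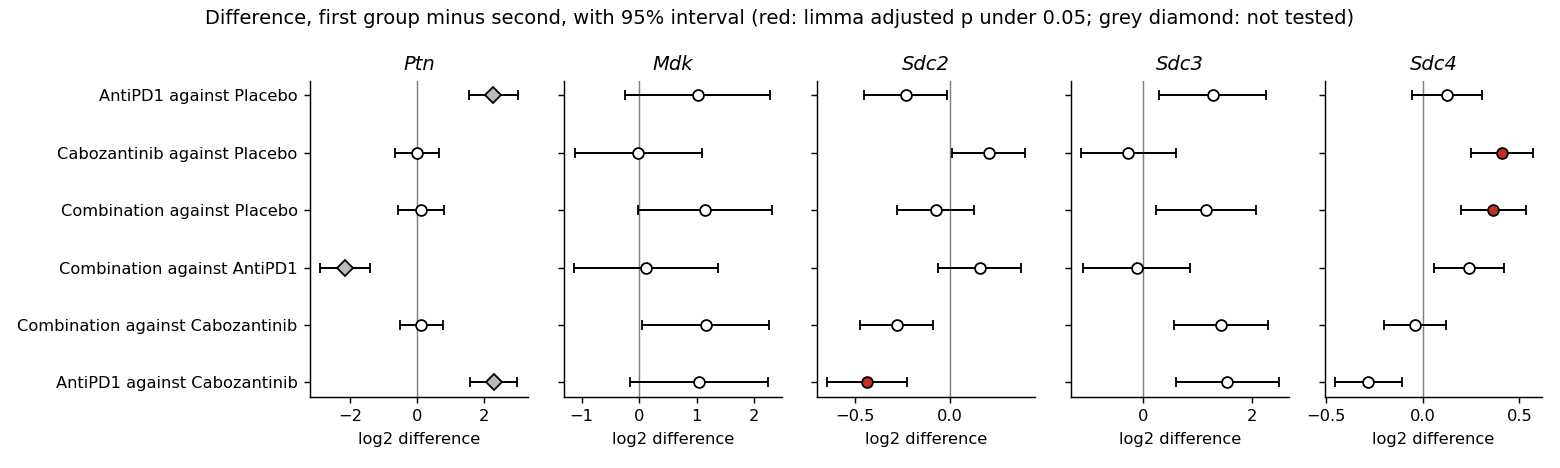
For each gene and each pair of groups, the point is the log2 difference of the first group minus the second (horizontal axis) and the line its 95% interval. Red points mark a limma adjusted p under 0.05 (Sdc4 in Cabozantinib and in Combination against Placebo, Sdc2 in AntiPD1 against Cabozantinib). Grey diamonds mark the Ptn differences that involve AntiPD1 and were only described. The open Ptn point of Combination against Placebo is also only described.

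Sdc3 stood higher in most tumours with the antibody than in those without it. The Placebo tumours gave 8.99, 8.60, 8.87 and 8.34, and the AntiPD1 tumours 9.94, 10.14 and 9.87. The Cabozantinib tumours gave 7.95, 6.84, 9.60, 8.88 and 8.87, and the Combination tumours 9.72, 10.32, 10.00 and 9.41. Of the 7 tumours with the antibody, 6 lay above all 9 without it. Complete separation of the tumours with and without the antibody, in either direction, was found for 0.965% of all genes. Sdc3 did not meet that stricter rule, and the share of genes with 6 of 7 tumours above was not counted. The exception for Sdc3 was Combination replicate 4, which lay below Cabozantinib replicate 3.

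No pairwise comparison of Sdc3 passed the threshold. AntiPD1 minus Placebo was 1.28 ± 0.46 (SE), limma adjusted p = 0.180, and Combination minus Placebo was 1.16 ± 0.43 (SE), limma adjusted p = 0.0913. In both, no treated tumour overlapped with Placebo, as for 9.22% and 7.94% of all genes in the same direction. AntiPD1 minus Cabozantinib was 1.55 ± 0.44 (SE), limma adjusted p = 0.0558, with no overlap, as for 5.88% of all genes in this direction, and Combination minus Cabozantinib was 1.43 ± 0.41 (SE), limma adjusted p = 0.0855. Combination minus AntiPD1 was -0.12 ± 0.46 (SE), with an interval of -1.11 to 0.87.

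The Sdc3 calls depended on the setting. With the mean of all its probe sets, Combination against Placebo and AntiPD1 against Cabozantinib were called, at limma adjusted p of 0.0282 and 0.0208. The latter was also called with dim genes left out (0.0427), after quantile normalization (0.0454) and with the title code as a random block (0.0468). With array weights, all 4 of those differences were called, at limma adjusted p of 0.0281, 0.0254, 0.00899 and 0.0319 in the order given. With only the 2 groups fitted, AntiPD1 and Combination against Placebo were called (0.0471 and 0.0186), and the comparisons with Cabozantinib were not (0.197 and 0.206). Leaving out Cabozantinib replicate 2, the lowest tumour, gave a limma adjusted p of 0.0246 in Combination against Placebo. Leaving out Cabozantinib replicate 3, the highest, gave 0.0130 in AntiPD1 against Cabozantinib and 0.0170 in Combination against Cabozantinib. Without Cabozantinib replicate 4 the former was 0.0457. Over all settings the limma adjusted p ran from 0.0281 to 0.542, from 0.0186 to 0.239, from 0.00899 to 0.199 and from 0.0170 to 0.295.

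With the antibody averaged over cabozantinib, again added after the values were seen, Sdc3 rose by 1.36 ± 0.31 (SE), a fold change of 2.56, limma adjusted p = 0.0149, where 8.33% of all genes were called as higher. The call was lost without AntiPD1 replicate 2 (limma adjusted p = 0.0510) and kept in the other 15 fits that leave out a tumour and under the other 7 settings (0.00202 to 0.0400). All 3 probe sets of Sdc3 were called in this contrast, at 1.36, 1.17 and 0.35, with limma adjusted p of 0.0155, 0.0101 and 0.0315. In 1436482_PM_a_at the pairwise differences were also called in Combination against Placebo (1.03 ± 0.25, SE, limma adjusted p = 0.0316) and in AntiPD1 against Cabozantinib (1.31 ± 0.26, SE, limma adjusted p = 0.0142).

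**Figure D4:**
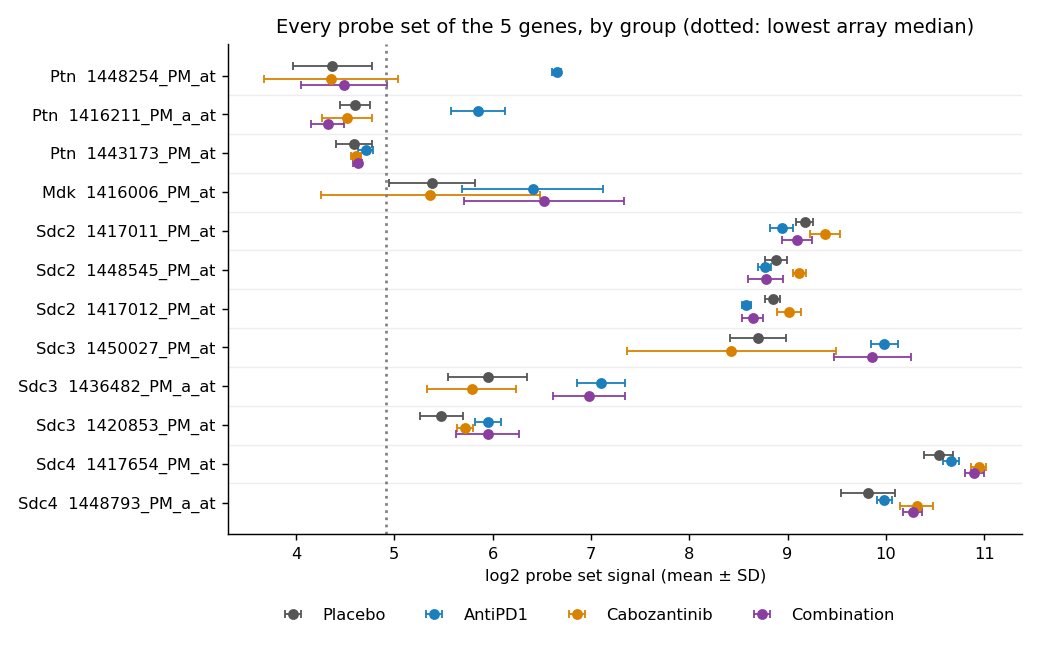
Every probe set of the 5 genes is shown as the mean ± SD of the log2 signal (horizontal axis) in each group, with a dotted line at the lowest array median, 4.92. The AntiPD1 mean stands out in 2 of 3 Ptn probe sets, and the order of groups is shared by the 3 Sdc2 and the 2 Sdc4 probe sets.

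Sdc3 signal tracked the macrophage markers closely. Against the score of 10 of 10 monocyte and macrophage genes, among them Adgre1, Csf1r and C1qa, it gave r = 0.95 and rho = 0.98 over the 16 tumours, each with a permutation p of 1e-05, the smallest the resamples can give (adjusted p = 0.000433 and 0.00065). Without the 2 farthest tumours r was 0.97, and within groups it was 0.91 (permutation p = 0.0003, adjusted p = 0.0195). The T cell score gave r = 0.88 (permutation p = 2e-05, adjusted p = 0.000433) and rho = 0.80 (permutation p = 0.00043, adjusted p = 0.00559), and the fibroblast score r = 0.84 (permutation p = 8e-05, adjusted p = 0.00104) and rho = 0.84 (permutation p = 0.00012, adjusted p = 0.00195). Without the 2 farthest tumours these r were 0.73 and 0.79. Within groups they were 0.83 (adjusted p = 0.0786) and 0.73 (adjusted p = 0.262). With the score of 10 hepatoma genes Sdc3 ran the other way, at r = -0.63 (permutation p = 0.00839, adjusted p = 0.0530), r = -0.56 without the 2 farthest tumours, rho = -0.74 (permutation p = 0.00142, adjusted p = 0.0132) and r = -0.52 within groups (adjusted p = 0.351).

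The macrophage score was 0.44 to 0.80 in AntiPD1, 0.43 to 1.12 in Combination, -1.38 to -0.08 in Placebo and -1.97 to 0.42 in Cabozantinib. All 10 of its genes were called as higher with the antibody averaged over cabozantinib, where 8.33% of all genes were. Their median was 1.23 against -0.03 for all genes. Cabozantinib replicates 2 and 3, the lowest and highest of their group in Sdc3, were also its lowest and highest in this score, at -1.97 and 0.42. The genes most like Sdc3 were Slc11a1, the metal transporter of phagocyte vesicles (r = 0.98), the adenylyl cyclase gene Adcy7 (r = 0.98), Nckap1l, an actin regulator of blood cells (r = 0.98), Trpt1 (r = 0.98) and Nrros, a myeloid protein (r = 0.98). Their r within groups was 0.95 to 0.97. The part of macrophages in the Sdc3 difference was not tested. Signal of Y-linked genes also moved with the antibody, with a score of 0.58 ± 0.17 (SD, n = 3) in AntiPD1 and 0.54 ± 0.33 (SD, n = 4) in Combination. It was -0.39 ± 0.50 (SD, n = 4) in Placebo and -0.47 ± 0.52 (SD, n = 5) in Cabozantinib, and its part in the Sdc2 and Sdc3 differences was not tested.

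Among the members themselves, 10 pairs were compared over the 16 tumours. Mdk and Sdc3 were related at r = 0.75 (permutation p = 0.00074, adjusted p = 0.0074) and rho = 0.75 (permutation p = 0.00109, adjusted p = 0.0109). Without the 2 farthest tumours r was 0.72, and within groups r was 0.57 (adjusted p = 0.507), so the relation did not pass there. Sdc2 and Sdc4 gave r = 0.54 over all tumours (adjusted p = 0.0798) and r = 0.67 within groups (permutation p = 0.0045, adjusted p = 0.0450). No other pair passed by either value, and the pairs with Ptn are not read further because its AntiPD1 tumours stand apart.

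The interaction of the drugs, the antibody's difference with cabozantinib minus that without it, called none of the 4 genes other than Ptn and 0 of all genes by limma, with 440 genes, or 2.57%, at an unadjusted p under 0.05. It was -2.16 ± 0.46 (SE) for Ptn, as a description. It was 0.14 ± 0.78 (SE) for Mdk, with an interval of -1.53 to 1.81, and 0.15 ± 0.62 (SE) for Sdc3, with an interval of -1.17 to 1.47. For Sdc2 it was -0.05 ± 0.14 (SE), with an interval of -0.34 to 0.24, and for Sdc4 -0.17 ± 0.11 (SE), with an interval of -0.41 to 0.07. None of these 4 had an unadjusted p under 0.05. In AntiPD1 against Placebo 0 of these 4 genes were called by limma and 2 had an unadjusted p under 0.05, Sdc2 and Sdc3, as had 19.2% of all genes. In Combination against AntiPD1 the counts were 0 and 1, which was Sdc4, against 7.21% of all genes at that unadjusted level. In Combination against Cabozantinib they were 0 and 3, where limma called 0.00585% of all genes and 22.5% had an unadjusted p under 0.05.

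The receptors and partners of pleiotrophin and midkine, 14 of 14 measured, were called in only 2 of the 6 pairwise comparisons. In Cabozantinib against Placebo 1 was called, where limma called 0.257% of all genes. Itgav, the alpha V integrin chain, rose by 0.33 ± 0.06 (SE), from 11.58 to 11.90, limma adjusted p = 0.0418. In AntiPD1 against Cabozantinib Itgav fell by 0.40 ± 0.07 (SE, limma adjusted p = 0.00668), Itga6, the laminin-binding alpha 6 chain, fell by 0.36 ± 0.09 (SE, 0.0338) and the VEGF and semaphorin co-receptor Nrp1 rose by 0.83 ± 0.23 (SE, 0.0455). The median of the list was -0.10 there, against -0.03 for all genes, and 5.43% of all genes were called. No receptor was called in the other 4 pairwise comparisons by limma. In these, 2, 2, 1 and 5 of the 14 had an unadjusted p under 0.05, for AntiPD1 and Combination against Placebo and Combination against AntiPD1 and Cabozantinib. Of all genes, 19.2%, 29.2%, 7.21% and 22.5% had such a p, in the same order. The receptor with the smallest p in Combination against Placebo was Lrp1, the endocytic receptor, at 0.72 ± 0.25 (SE), limma adjusted p = 0.0714.

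Of 11 measured glypicans and other proteoglycans, 3 were called in Combination against Placebo, where 10.4% of all genes were called. The TGF-beta co-receptor betaglycan (Tgfbr3) rose by 1.58 ± 0.39 (SE), limma adjusted p = 0.0291, and serglycin (Srgn), the granule proteoglycan of blood cells, rose by 0.71 ± 0.19 (SE), limma adjusted p = 0.0353. Col18a1, the basement membrane collagen that gives rise to endostatin, fell by 0.71 ± 0.14 (SE), limma adjusted p = 0.0150. In AntiPD1 against Cabozantinib, where 5.43% of all genes were called, Cd44 alone of the list was called and fell by 0.27 ± 0.07 (SE), limma adjusted p = 0.0427. The list's medians in these comparisons were -0.02 and 0.01, against -0.02 and -0.03 for all genes.

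Of 19 measured enzymes that build or trim heparan sulfate, 4 fell and 0 rose in Combination against Placebo. Ext1 and Ext2, which form the polymerase of the chain, fell by 0.36 ± 0.08 (SE, limma adjusted p = 0.0203) and by 0.29 ± 0.08 (SE, 0.0395). Extl2 fell by 0.29 ± 0.07 (SE, limma adjusted p = 0.0208), and the sulfotransferase Hs3st3b1 fell by 0.82 ± 0.16 (SE, 0.0156). The list's median was -0.04, against -0.02 for all genes, and 6.64% of all genes were called as lower. In AntiPD1 against Cabozantinib 1 was called, Extl2, which fell by 0.26 ± 0.07 (SE, limma adjusted p = 0.0405). There 2.67% of all genes were called as lower.

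Of the 11 cytoplasmic partners of syndecans, only Fyn, a Src family kinase abundant in T cells, was called in any pairwise comparison. It rose by 1.52 ± 0.39 (SE) in AntiPD1 against Cabozantinib, limma adjusted p = 0.0375, where 5.43% of all genes were called. Syntenin (Sdcbp), which binds the syndecan tail, was 0.22 ± 0.07 (SE) higher in AntiPD1 than in Placebo, limma adjusted p = 0.142. Of the 9 genes of the sheddase list, which holds the inhibitor Timp3, 0 were called in any of the 6 pairwise comparisons by limma, with between 1 and 4 at an unadjusted p under 0.05. The 4 were in Combination against Placebo, where 29.2% of all genes reached that level. The gelatinase Mmp2 differed by 2.13 ± 0.84 (SE) in AntiPD1 against Placebo and by 2.33 ± 0.78 (SE) in Combination against Placebo, limma adjusted p = 0.205 and 0.0675.

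Of 11 other heparin-binding growth factors, Vegfa, the main ligand of the VEGF receptors that cabozantinib inhibits, was the only called gene in any pairwise comparison. It was lower in AntiPD1 than in Cabozantinib by 1.05 ± 0.17 (SE), limma adjusted p = 0.00554, with means of 9.02 and 10.08. There 2.67% of all genes were called as lower. In Combination against AntiPD1, where the difference of Ptn was -2.17, Vegfa was 0.79 ± 0.18 (SE) higher, limma adjusted p = 0.132. With cabozantinib averaged over the antibody, Vegfa rose by 0.63 ± 0.12 (SE), limma adjusted p = 0.0165, and Itgav by 0.24 ± 0.05 (SE), limma adjusted p = 0.0175, beside Sdc4. These comparisons share groups with those of Sdc4 and are not independent of them.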

How the data were processed

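Total RNA (50 ng per tumour) from 16 tumours was hybridised to Affymetrix mouse arrays. The authors deposited log2 probe set signals, and the submitters' processing notes name RMA and affy 1.62.0. No label names a scan date or a batch. Of 45141 probe sets, 28898 were paired with 1 gene, 551 with several and 15588 with none, and 104 were controls. The probe set with the highest mean was kept for each of 17097 genes, which are named by GEO's platform annotation.

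Groups were compared with limma 3.58.1 (R 4.3.3), by lmFit and eBayes on 4 group means over all 16 arrays (12 residual and 2.47 prior degrees of freedom). Benjamini-Hochberg adjustment ran across the whole table of genes, with a threshold of 0.05. The step was tested on simulated data. Correlations used two-sided permutation tests with 100000 resamples (scipy 1.17.1) over 10 pairs, since Sdc1 was not analysed. Promoters came from RefSeq.

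The members and lists were chosen with earlier results of these data known. In each pairwise comparison up to 4 called genes of a list were named, by size, or the gene with the smallest p, and the 5 genes most like each member. Contrasts averaged over a drug, marker correlations, separate probe sets, a trended prior and a block by title code were added after seeing the data. Arrays carry no read depth, and their number limits the precision. The p-values measure only the spread between these tumours.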

Additional observations from a re-analysis of the deposited data

Results flagged for a closer look

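A tumour far from the rest of its group was looked for in 15 sets of values, the 5 genes in the 3 groups of 4 or 5 tumours, and chance alone marks about 1 in 20 such sets. Ptn in Cabozantinib replicate 3 was 5.55, with the nearest of the other 4 tumours at 4.26. The same tumour was also the highest of its group for Sdc3, at 9.60, and had its highest fibroblast and macrophage scores, 0.96 and 0.42. Sdc2 in Cabozantinib replicate 4 was 9.12, with the nearest at 9.39. The skeletal muscle score of that tumour was 4.41. Without the 3 tumours high in muscle genes, the difference of Sdc2 in AntiPD1 against Cabozantinib was -0.56, and its limma adjusted p was 0.0234.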

How the results depend on the processing

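No paired analysis was possible because the labels give no replicate numbers, and the numbers used here follow the order of the samples. The titles carry 12 codes whose meaning the labels do not give, 4 of them on 2 tumours and 3 of those shared by 2 groups. As a random block, added after seeing the data, they had a consensus correlation of -0.10. In that fit, calls among all genes in AntiPD1 against Placebo went from 5 to 1, and the 4 genes other than Ptn had 3 calls in AntiPD1 against Cabozantinib in place of 1. Ptn in Cabozantinib against Placebo went to 0.011, and the other comparisons kept their count of calls within 1.5 times. The settings were the mean of all probe sets of a gene, dim genes left out, arrays quantile normalized again, array weights, only the 2 groups compared, no tumours high in muscle genes, a trended and robust prior, that block, and each tumour left out in turn. For differences of single genes other than leaving out a tumour, 299 values kept their direction and side of the threshold, 20 newly passed it, 3 no longer did, 9 changed sign and 5 moved by more than the spread between tumours. The 5 were all of Ptn with the mean of all probe sets: 1.22 in AntiPD1 against Placebo, -1.26 in Combination against AntiPD1, 1.24 in AntiPD1 against Cabozantinib, -1.23 in the interaction and 0.60 for the averaged antibody.

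Among all genes, 5 were called in AntiPD1 against Placebo, and 8 with mean probe sets, 1 without dim genes, 8 after quantile normalization, 70 with only the 2 groups and 1822 with array weights. In Cabozantinib against Placebo 44 were called, and 82, 72 and 71 with mean probe sets, without dim genes and with weights, and 4 with only the 2 groups. In Combination against Placebo 1771 became 3059 with weights. In Combination against AntiPD1 40 became 25 without dim genes, 155 with weights, 14 without the muscle-rich tumours and 22 with only the 2 groups. In Combination against Cabozantinib 1 became 4 with mean probe sets, 2 without dim genes, after quantile normalization and with the trended prior, 1441 with weights and 37 without the muscle-rich tumours. In AntiPD1 against Cabozantinib 928 became 2864 with weights, 235 without the muscle-rich tumours and 149 with only the 2 groups. Averaged over the other drug, 362 calls for cabozantinib became 730 with weights, and 3075 for the antibody became 5037 with weights and 1613 without the muscle-rich tumours.

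Of the 4 genes other than Ptn, 0 were called in AntiPD1 against Placebo, and 1 with weights or with only the 2 groups. In Cabozantinib against Placebo 1 became 0 without the muscle-rich tumours or with only the 2 groups. In Combination against Placebo 1 became 2 with mean probe sets, weights or only the 2 groups. In Combination against Cabozantinib 0 became 2 with weights. In AntiPD1 against Cabozantinib 1 became 2 with mean probe sets or the trended prior, 3 without dim genes or after quantile normalization, 4 with weights and 0 with only the 2 groups. Called pairs rose from 1 to 2 with mean probe sets. Small differences changed sign: Ptn to 0.085 in Cabozantinib against Placebo and Sdc3 to 0.11 in Combination against AntiPD1 without the muscle-rich tumours; Ptn to -0.040 against Placebo and -0.017 against Cabozantinib in Combination, Sdc3 to -0.018 in the interaction and r of Sdc3 and Sdc4 to 0.055 with mean probe sets. Mdk went to -0.19 in Combination against AntiPD1 and to -0.24 for cabozantinib averaged over the antibody with weights, and the latter to -0.12 without the muscle-rich tumours. Within groups r of Ptn and Sdc2 was 0.13. The cause of these changes was not tested.

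Leaving out a tumour gave 0 to 30 calls among all genes in AntiPD1 against Placebo, 5 to 91 in Cabozantinib against Placebo, 42 to 2290 in Combination against Placebo, 13 to 50 in Combination against AntiPD1, 0 to 1955 in Combination against Cabozantinib (1955 without Cabozantinib replicate 3), 164 to 1916 in AntiPD1 against Cabozantinib and 0 to 1 in the interaction. For the averaged contrasts it gave 158 to 443 for cabozantinib and 602 to 4258 for the antibody. Of the 4 genes it called 0 to 1, 0 to 2, 0 to 1 and 0 to 3 in Cabozantinib and Combination against Placebo and Combination and AntiPD1 against Cabozantinib, and 1 to 3 for the averaged antibody. Differences that changed sign ran from -0.31 to 0.13 for Ptn, -0.39 to 0.25 for Mdk and -0.57 to 0.12 for Sdc3 in Cabozantinib against Placebo; from -0.087 to 0.26 for Ptn in Combination against Placebo and -0.078 to 0.42 against Cabozantinib; and from -0.29 to 0.42 for Mdk and -0.27 to 0.031 for Sdc3 in Combination against AntiPD1. In the interaction they ran from -0.27 to 0.51 for Mdk, -0.11 to 0.022 for Sdc2 and -0.24 to 0.45 for Sdc3, and for averaged cabozantinib from -0.15 to 0.20 for Mdk and -0.34 to 0.0025 for Sdc3. Signal near background limits what can be read from Ptn in 3 of the 4 groups and from the lowest Mdk values in Placebo and Cabozantinib.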
